A study of Mus musculus with 25 samples.

Results

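The interferon-inducible GTPase genes followed here were 9 genes chosen by name, Gbp2, Gbp3, Gbp6, Gbp7, Igtp, Irgm1, Irgm2, Iigp1 and Tgtp1, out of 24537 genes in a table of liver read counts. All 9 passed the filter on low counts, which 14133 genes passed. The livers came from 24-month-old male C57BL6/J mice and were flash frozen before polyA RNA was sequenced. Control_Rosa26KO (n = 6) carried a knockout at the Rosa26 locus, a site commonly used as a neutral control, and was fed ControlDiet, and HFD_Rosa26KO (n = 6) had the same genotype on HFD, a high-fat diet. Control_p53KO (n = 6) carried p53KO, a knockout of the tumour suppressor gene Trp53, on ControlDiet, and HFD_p53KO (n = 7) had p53KO on HFD. All 4 groups therefore carried a knockout and were old, and the labels state neither how the knockouts were made nor in which cells. The question put to the data was how these genes moved with diet and with p53 loss, and how that compared with the type I interferon response.

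Interferon gamma is released mainly by T cells and natural killer (NK) cells, and acts through the receptor pair Ifngr1 and Ifngr2, and promoters of its targets often hold a short sequence called GAS. Type I interferons act through another receptor, and promoters of their targets often hold a sequence called ISRE. The transcription factor Irf1, which interferon gamma induces, binds sequences similar to the ISRE. The genes described here are best known as targets of interferon gamma, and many of them also respond to type I interferon. The guanylate-binding proteins (Gbp genes) gather on membranes around intracellular bacteria and parasites. The immunity-related GTPases comprise regulators that sit on the cell's own membranes (Irgm1, Irgm2 and Igtp, also called Irgm3) and effectors that attack the vacuoles of pathogens (Iigp1, also called Irga6, and Tgtp1, also called Irgb6). In liver these proteins can be made by hepatocytes as well as by immune and endothelial cells.

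On GRCm38 (annotation GENCODE M21), Gbp7 (chr3:142530342-142550149), Gbp3 (chr3:142560026-142573209) and Gbp2 (chr3:142620602-142638008) are neighbours on the plus strand of chromosome 3, and Gbp6 (chr5:105270702-105293698) lies on the minus strand of chromosome 5. Irgm1 (chr11:48861968-48871683) and Tgtp1 (chr11:48985327-48994172) lie on the minus strand of chromosome 11, and Igtp (chr11:58199556-58207591) and Irgm2 (chr11:58199618-58222782) on its plus strand. Iigp1 lies apart from them on another chromosome. Values are sums over each gene's exons. Several of these genes have near copies, so reads may be split between them, and the handling of such reads is not given in the sources used here. The longest Tgtp1 transcript was 99.8% identical to Tgtp2 over 99.6% of its length, and that of Gbp6 was 99.2% identical to Gbp10 over 75% and 99.8% identical to the predicted gene Gm43302 over 94%. Exons also overlap on the same strand. Gbp6 shares 1726 bases with Gm43302, Gbp7 shares 637 with the pseudogene Gm43802, and Tgtp1 shares 223 with Gm12185. The exons of Igtp and Irgm2 share 162 bases. Levels of Tgtp1 and Gbp6 are therefore uncertain as levels of those genes alone, and in part so are those of Gbp7, Igtp and Irgm2.

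The stretch just before a RefSeq transcription start is shown for the 7 genes that have an entry in a RefSeq promoter table (GRCm38.p6). Promoters of interferon targets often hold GAS or ISRE motifs, and sequence outside the windows was not searched. By the gene positions above, the stretches of Irgm1, Irgm2 and Tgtp1 lie inside the gene, so these starts are not the outermost ones in GENCODE. Each window held 300 bases, of which the 120 bases around the matches are printed 5′ to 3′ on the gene's own strand. Capitals mark matches to the GAS letters TTCNNNGAA or to the ISRE core, which is GAAA, any 2 bases and GAAA again (on the other strand TTTC, any 2 bases and TTTC).
Gbp2, chr3:142620543-142620662, plus strand: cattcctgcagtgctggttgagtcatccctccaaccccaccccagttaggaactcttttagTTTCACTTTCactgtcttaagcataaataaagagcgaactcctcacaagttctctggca
Gbp3, chr3:142559924-142560043, plus strand: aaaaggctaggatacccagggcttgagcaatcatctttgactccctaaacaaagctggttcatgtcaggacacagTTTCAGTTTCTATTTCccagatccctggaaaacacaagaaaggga
Gbp7, chr3:142530216-142530335, plus strand: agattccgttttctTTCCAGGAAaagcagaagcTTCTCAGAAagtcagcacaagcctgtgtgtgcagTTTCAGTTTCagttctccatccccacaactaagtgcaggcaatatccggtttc
Irgm1, chr11:48871421-48871540, minus strand: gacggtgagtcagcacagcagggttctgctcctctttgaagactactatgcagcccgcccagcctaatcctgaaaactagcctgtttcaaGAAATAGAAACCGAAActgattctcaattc
Irgm2, chr11:58214857-58214976, plus strand: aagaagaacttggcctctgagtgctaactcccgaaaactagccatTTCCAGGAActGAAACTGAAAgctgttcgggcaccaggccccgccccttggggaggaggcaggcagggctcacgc
Igtp, chr11:58199436-58199555, plus strand: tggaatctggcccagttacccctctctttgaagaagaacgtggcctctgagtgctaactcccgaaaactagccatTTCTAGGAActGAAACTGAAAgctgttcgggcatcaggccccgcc
Tgtp1, chr11:48992247-48992366, minus strand: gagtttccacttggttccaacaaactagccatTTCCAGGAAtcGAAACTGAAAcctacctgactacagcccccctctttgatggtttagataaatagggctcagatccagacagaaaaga
The ISRE core was present in a window of 7 of 7 genes and the GAS motif in a window of 4 of 7 (Gbp7, Irgm2, Igtp and Tgtp1). Gbp3 had a second window, at chr3:142560106-142560405, which held neither motif and is not printed. The stretches of Irgm2 and Igtp are nearly alike around their matches, so these genes are not independent of each other. Both strands were searched, and the GAS letters read the same on each. In Gbp3 and in Irgm1 a pair of ISRE matches overlapped. Gbp7 held 2 GAS matches, at 106 to 98 and 87 to 79 bases before the start, and 1 ISRE match, at 53 to 44 bases before it. In Irgm2, Igtp and Tgtp1 a GAS match was followed after 2 bases by the ISRE match. Among all 27018 genes in the promoter table, 9.55% held the GAS motif, 3.99% the ISRE core and 0.614% both. Of the 25 genes of the type I interferon list with a window, 15 held the ISRE core, 4 the GAS motif and 3 both. A match describes letters only and does not show binding.

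The 25 libraries held 16324283 to 21501281 counts each. Values below are normalised read counts in CPM, counts scaled to a common library size after TMM scaling for library composition. Trp53, the targeted gene, ran from 17.2 to 35.6 CPM in Control_p53KO and from 19.6 to 31.0 in HFD_p53KO, against 31.6 to 43.7 in Control_Rosa26KO and 30.6 to 43.8 in HFD_Rosa26KO. The ranges of the p53KO and Rosa26KO libraries overlapped on each diet, the log2 fold change of Trp53 was -0.61 on control diet (SE 0.15, adjusted p = 0.453, edgeR's quasi-likelihood test) and -0.51 on HFD, and which exons were deleted is not stated. The labels name separate samples and do not say more about their origin, so p-values measure the spread between these samples. Neutrophil markers stood high in 3 libraries, Control_p53KO replicates 1 and 3 and HFD_Rosa26KO replicate 6. The 8 hepatocyte markers, among them Alb, were detected in every library. In bulk liver, fewer cells of a type and less RNA per cell cannot be told apart.

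All 9 GTPase genes were expressed in all libraries, at between 10.4 and 716 CPM. Per kilobase of exon, the order of mean levels in Control_Rosa26KO ran from Iigp1 (81.6 CPM per kilobase) through Igtp (46.2), Irgm2 (33.8), Irgm1 (20.5), Tgtp1 (16.0), Gbp6 (12.8), Gbp3 (9.39) and Gbp2 (7.42) to Gbp7 (4.81). Iigp1 stood above its neighbour Igtp by more than the SD of either, and so did Irgm2 above Irgm1. Each other gene differed from the next in the order by less than its own SD between libraries. By this length, the immunity-related GTPases lay above the guanylate-binding proteins in this group. In HFD_p53KO Gbp6, at 31.4 CPM per kilobase, lay beside Irgm1, at 31.3. The length used was that of all exons of a gene merged. For some genes the longest transcript was shorter, at 3832 bases against 5810 for Irgm1 and 4173 against 5954 for Gbp6. The order, with the step from Irgm2 to Irgm1 and that between the families, may therefore change with the length used.

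**Figure D1:**
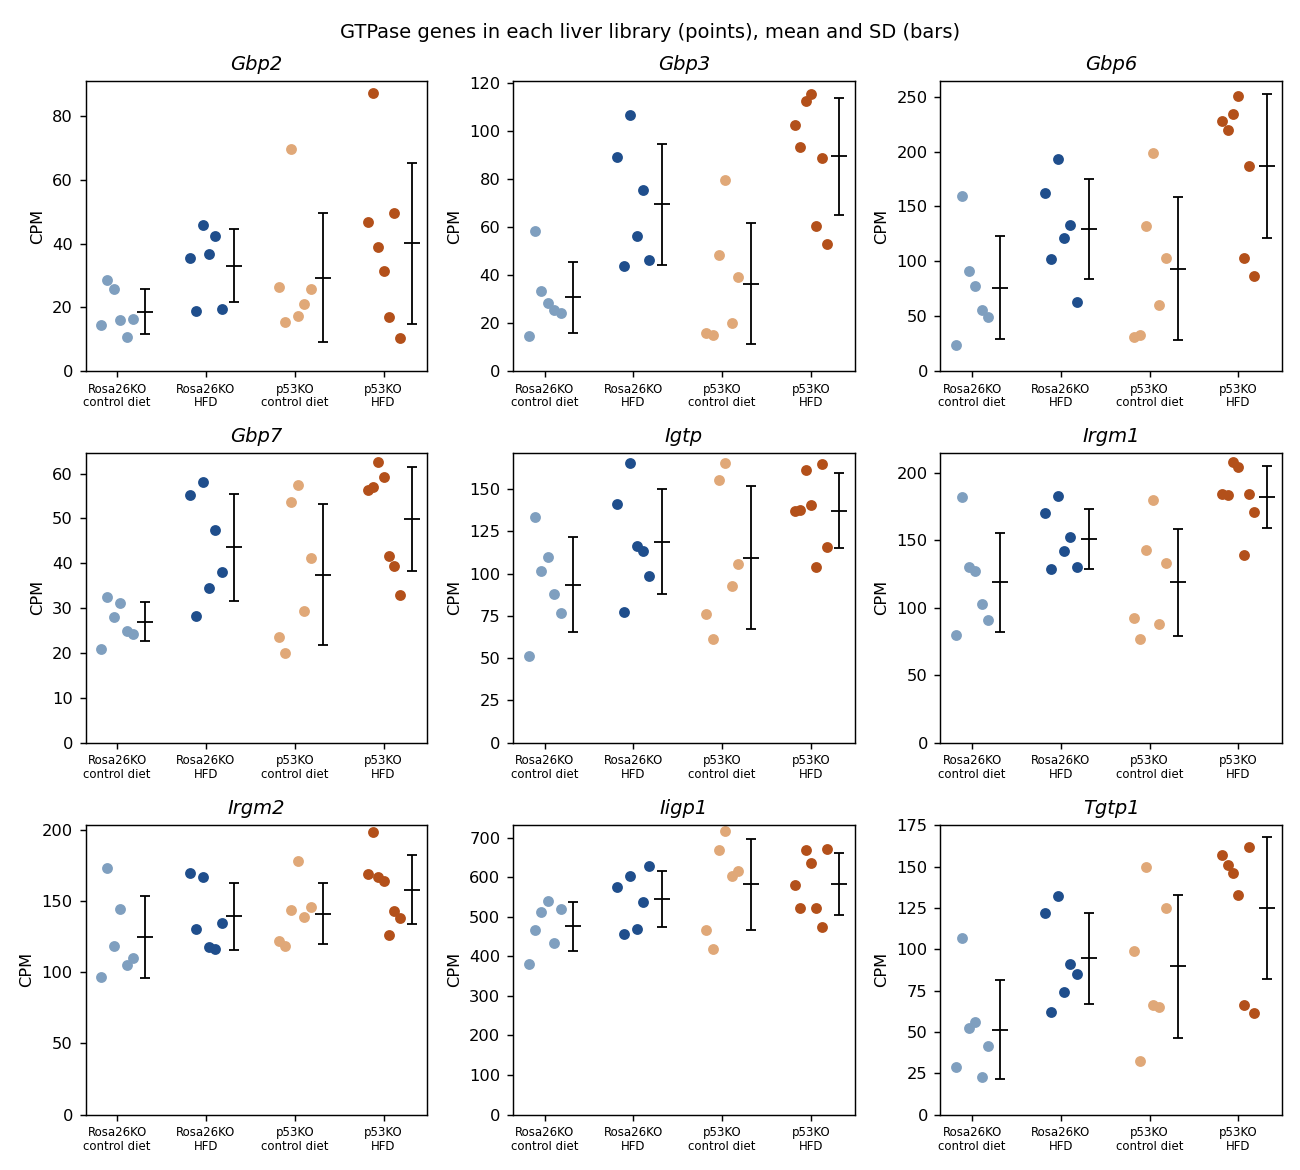
Normalised read count (CPM, TMM-scaled) of the 9 GTPase genes, 1 panel per gene; each point is a library, and the bars give the mean and SD of each group. Gbp3 shows the largest fold between diets of the 9 genes in both genotypes, from a mean of 30.7 to 69.6 CPM in Rosa26KO and from 36.4 to 89.6 CPM in p53KO, and the groups overlap.

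Among the guanylate-binding proteins, Gbp3 had 14.4 CPM in its lowest, 26.9 in its median and 58.4 in its highest library of Control_Rosa26KO, against 43.9, 65.9 and 107 in HFD_Rosa26KO. In p53KO the lowest, median and highest values of Gbp3 were 14.8, 29.7 and 79.7 CPM on control diet and 52.8, 93.6 and 116 on HFD. The HFD libraries were mostly above the control libraries in both genotypes, and in each genotype the ranges overlapped because 1 or more control libraries were high. The highest control libraries were Control_Rosa26KO replicate 2 and Control_p53KO replicate 4.

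Gbp6, a gene of the chromosome 5 cluster, ran from 23.5 through 66.3 to 160 CPM in Control_Rosa26KO and from 62.9 through 127 to 193 in HFD_Rosa26KO (lowest, median, highest). In p53KO it ran from 31.3 through 81.7 to 199 CPM on control diet and from 86.9 through 220 to 250.3 on HFD. The same 2 control libraries were highest for Gbp6 as for Gbp3. Summed with its near copy Gbp10, Gbp6 came to 125 ± 77.6 CPM in the Control_Rosa26KO group (SD, n = 6) and to 316 ± 111 in the HFD_p53KO group (SD, n = 7), and Gbp6 made up between 56.1% and 72.0% of the sum in each library.

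Gbp7 varied least among the guanylate-binding proteins, with 20.9, 26.5 and 32.5 CPM as lowest, median and highest in Control_Rosa26KO and 28.2, 42.8 and 58.1 in HFD_Rosa26KO. Its p53KO values were 19.96, 35.2 and 57.4 CPM on control diet and 32.9, 56.2 and 62.5 on HFD. Gbp2, which is recruited early to parasite vacuoles, had 10.8, 16.2 and 28.6 CPM in Control_Rosa26KO and 18.7, 36.0 and 45.8 in HFD_Rosa26KO. In p53KO Gbp2 had 15.5, 23.3 and 69.6 CPM on control diet and 10.4, 38.9 and 87.1 on HFD, so that the HFD_p53KO libraries reached from below every other group's lowest value to above every other group's highest.

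Of the regulatory GTPases, Irgm1, which protects the cell's own membranes and is tied to autophagy, had 80.1, 115 and 182 CPM in Control_Rosa26KO and 129, 147 and 183 in HFD_Rosa26KO. In p53KO its lowest, median and highest values were 76.6, 113 and 180 CPM on control diet and 139.5, 184 and 208 on HFD. On HFD the libraries of Irgm1 lay close together, with a coefficient of variation of 14.6% in Rosa26KO and 12.5% in p53KO, against 30.8% and 33.5% on control diet. Igtp had 51.3, 94.9 and 134 CPM in Control_Rosa26KO and 77.4, 115 and 166 in HFD_Rosa26KO, then 61.3, 99.2 and 166 in Control_p53KO and 104, 138 and 165 in HFD_p53KO. Irgm2 had 96.8, 114 and 173 CPM, 116, 133 and 170, 119, 141 and 178, and 126, 164 and 199 in the same order of groups. Control_Rosa26KO replicate 2 and Control_p53KO replicate 4 were the highest control libraries for both genes. For both genes the ranges of all group pairs overlapped.

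The effectors behaved unlike each other in spread. Iigp1 was the most abundant gene and varied little, with 380 to 540 CPM in Control_Rosa26KO, 457 to 627 in HFD_Rosa26KO, 420 to 716 in Control_p53KO and 474 to 671 in HFD_p53KO, and medians of 490, 556, 609 and 581 CPM. Tgtp1 had lowest, median and highest values of 22.8, 46.8 and 107 CPM in Control_Rosa26KO, 62.3, 88.2 and 132 in HFD_Rosa26KO, 32.5, 82.6 and 150 in Control_p53KO, and 61.5, 146 and 162 in HFD_p53KO. Tgtp1 made up between 73.8% and 86.3% of its sum with Tgtp2, and the sum was 66.8 ± 39.6 CPM in the Control_Rosa26KO group (SD, n = 6) and 152 ± 54.3 in the HFD_p53KO group (SD, n = 7).

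With HFD, in Rosa26KO livers, all 9 GTPase genes had a mean above that on control diet, and none passed edgeR's quasi-likelihood test with Benjamini-Hochberg adjustment over all genes. Of all genes tested, 1.51% were called in this comparison and 0.446% were called higher. The log2 fold changes were 1.18 for Gbp3 (SE 0.37, adjusted p = 0.0977), 0.88 for Tgtp1 (SE 0.36, adjusted p = 0.206), 0.82 for Gbp2 (SE 0.42, adjusted p = 0.310), 0.76 for Gbp6 (SE 0.44, adjusted p = 0.365) and 0.69 for Gbp7 (SE 0.23, adjusted p = 0.127). Those of Irgm1, Igtp, Iigp1 and Irgm2 were 0.35, 0.34, 0.20 and 0.16, with adjusted p from 0.355 to 0.584. At an unadjusted p under 0.05, 3 of the 9 were higher, against 7.55% of all genes tested. DESeq2 called 1 and limma voom with sample quality weights called 6 of the 9. No gene of the 9 had groups that did not overlap, a pattern that 1.2% of all genes tested showed towards higher values on HFD. The median over the 9 was 0.69, against 0.003 over all genes. Without Control_Rosa26KO replicate 2, Gbp3 (adjusted p = 0.0352) and Tgtp1 (adjusted p = 0.0482) passed the threshold.

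In p53KO livers the fitted change was above 0 for all 9 genes, at 0.0017 (SE 0.13) for Iigp1, and again none passed the test, where 2.87% of all genes were called and 1.62% were called higher. Gbp3 had a log2 fold change of 1.30 (SE 0.36) and missed the threshold at an adjusted p of 0.0513 in edgeR's quasi-likelihood test. Gbp6 had 1.005 (SE 0.43, adjusted p = 0.195) and Irgm1 0.61 (SE 0.19, adjusted p = 0.0700). The other genes lay between 0.16 for Irgm2 and 0.48 for Tgtp1, and the median of the 9 was 0.46 against -0.02 over all genes. At an unadjusted p under 0.05, 3 of 9 were higher, against 9.05% of all genes, while DESeq2 called 2 and limma voom called 4. None of the 9 had groups that did not overlap, against 0.644% of all genes towards higher values. With a term for the run of library names (replicates 1 and 2, 3 and 4, and 5 to 7), Gbp3 (1.42, adjusted p = 0.0200) and Irgm1 (0.66, adjusted p = 0.0297) passed. Gbp3 passed when any one of 7 libraries was left out (adjusted p = 0.0465 without Control_Rosa26KO replicate 1, 0.0337 without Control_Rosa26KO replicate 2, 0.0494 without Control_p53KO replicate 3, 0.00715 without Control_p53KO replicate 4, 0.0499 without HFD_Rosa26KO replicate 6, 0.0443 without HFD_p53KO replicate 5 and 0.032 without HFD_p53KO replicate 7). Irgm1 passed without Control_Rosa26KO replicate 2 (0.0414) or Control_p53KO replicate 4 (0.0147).

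Averaged over both genotypes, a contrast added after the data had been seen, Gbp3, Irgm1 and Gbp7 rose with HFD. Gbp3 rose by 1.24 on the log2 scale (SE 0.26, 2.36-fold, adjusted p = 0.00392, edgeR's quasi-likelihood test with Benjamini-Hochberg adjustment), Irgm1 by 0.48 (SE 0.13, adjusted p = 0.0243) and Gbp7 by 0.55 (SE 0.16, adjusted p = 0.0326). In this contrast 9.71% of all genes were called and 4.64% were called higher, against 3 of the 9 GTPase genes. At an unadjusted p under 0.05, 7 of the 9 were higher, against 11.1% of all genes. Gbp6 (0.88, SE 0.30, adjusted p = 0.0678), Tgtp1 (0.68, SE 0.25, adjusted p = 0.0856) and Gbp2 (0.64, SE 0.29, adjusted p = 0.172) did not pass, nor did Igtp (0.34, adjusted p = 0.202), Irgm2 (0.16, adjusted p = 0.337) or Iigp1 (0.10, adjusted p = 0.566).

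Gbp3 and Irgm1 passed in this contrast whichever single library was left out, with adjusted p from 0.000626 to 0.00900 for Gbp3 and from 0.00475 to 0.0483 for Irgm1. Gbp7 was lost, at adjusted p between 0.0504 and 0.0657, when any one of 12 libraries was left out, namely Control_Rosa26KO replicates 1, 5 and 6, HFD_Rosa26KO replicates 1, 3 and 5, Control_p53KO replicates 2 and 5, and HFD_p53KO replicates 1, 2, 3 and 4. Leaving out some libraries added calls. Gbp6 passed without Control_Rosa26KO replicate 2 (0.0195), Control_p53KO replicate 3 (0.0487), Control_p53KO replicate 4 (0.0216), HFD_Rosa26KO replicate 6 (0.0475) or HFD_p53KO replicate 7 (0.0411). Tgtp1 passed without Control_Rosa26KO replicate 2 (0.0164), Control_p53KO replicate 3 (0.0382) or HFD_p53KO replicate 7 (0.0473), and Gbp2 without Control_p53KO replicate 3 (0.0298). With the 3 libraries high in neutrophil markers left out together, an alternative also chosen after the data had been seen, 6 of the 9 were called.

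The library names fall into 3 runs (replicates 1 and 2, 3 and 4, and 5 to 7 of each group), and what the runs stand for is not stated. As the mean log2 CPM of the 9 genes, centred over the 25 libraries, HFD libraries on average lay above control libraries of the same genotype in every run. In Rosa26KO the control and HFD means were -0.44 and 0.10 in the first run, -0.28 and 0.33 in the second, and -0.71 and 0.05 in the third. In p53KO they were -0.76 and 0.68, 0.40 and 0.66, and -0.18 and 0.10. With the run as a term, Gbp3, Gbp6, Gbp7 and Irgm1 were called in the average over genotypes, Gbp3 and Irgm1 in p53KO, and none of the 9 in Rosa26KO by edgeR's quasi-likelihood test, where 4 had an unadjusted p under 0.05.

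**Figure D2:**
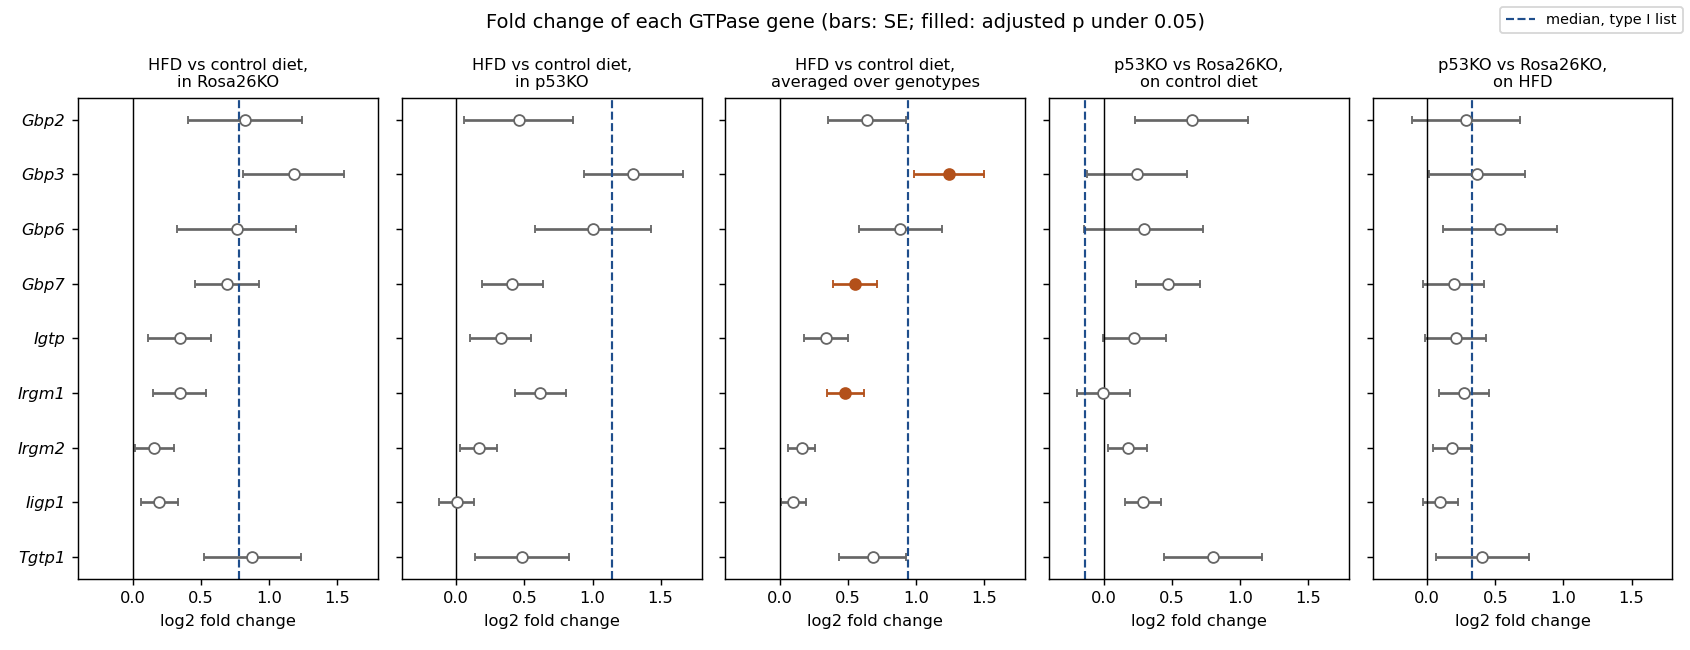
Log2 fold change (horizontal axis) of each of the 9 GTPase genes in 5 comparisons, with bars of 1 SE on either side, filled points for an adjusted p under 0.05 and a dashed line at the median of the type I list. Filled points are Gbp3, Gbp7 and Irgm1 in the average over genotypes, and the HFD comparisons lie at or above 0 for all 9 genes, from 0.0017 for Iigp1 in p53KO to 1.30 for Gbp3 in p53KO.

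Loss of p53 was tested on each diet. On control diet, 8 of 9 genes were fitted higher in p53KO and Irgm1 was at -0.00096, and none was called, as with 0% of all genes tested. The largest were Tgtp1 at 0.80 (SE 0.36, adjusted p = 0.474, edgeR's quasi-likelihood test with Benjamini-Hochberg adjustment) and Gbp2 at 0.65 (SE 0.42, adjusted p = 0.563). Iigp1 had 0.29 (SE 0.13, adjusted p = 0.478). Tgtp1 and Iigp1 were the 2 of 9 with an unadjusted p under 0.05, against 5.84% of all genes in the higher direction. DESeq2 and limma voom called 0 of the 9. The median of the 9 was 0.29, and it moved to 0.54 without Control_Rosa26KO replicate 2, to 0.12 without Control_Rosa26KO replicate 1, to 0.17 without Control_p53KO replicate 3 and to 0.10 without Control_p53KO replicate 4. Markers of T and NK cells moved the same way in this comparison, with 19 of 19 above 0, a median log2 fold change of 0.999, 7 at an unadjusted p under 0.05 and 0 called. Their summed level ran from 19.4 to 49.5 CPM in Control_Rosa26KO and from 25.7 to 223.8 in Control_p53KO, and none of them was at 0 in any library. Neutrophil markers had 9 of 9 above 0, a median of 3.28, 8 at an unadjusted p under 0.05 and 0 called, with sums from 6.89 to 33.9 CPM in Control_Rosa26KO and from 10.1 to 565.6 in Control_p53KO, and Ly6g, Mmp8, Ltf, Camp and Ngp were at 0 in some libraries. Monocyte and recruited macrophage markers had 9 of 10 above 0 with a median of 0.37 and Kupffer cell markers 8 of 10 with a median of 0.32, with 0 called in either list. Their sums in Control_Rosa26KO and Control_p53KO were 159 to 540.4 and 184 to 1350.1 CPM for the first list, and 357 to 1007 and 601 to 2404 CPM for the second. Median sums in these groups were 29.3 and 40.5 CPM for T and NK cell markers and 16.8 and 23.6 for neutrophil markers. They were 411 and 355 CPM for monocyte and macrophage markers and 756 and 824 for Kupffer cell markers. By mean log2 CPM, Control_p53KO replicate 3 was highest in its group for the T and NK, monocyte and Kupffer lists, and replicate 1 for neutrophil markers. B cell markers had 6 of 6 above 0 with a median of 0.30, and acute phase genes such as Saa1 11 of 12 with a median of 0.48. Hepatocyte markers had 1 of 8 above 0 with a median of -0.15, and sinusoidal endothelial markers 5 of 10. In each of these lists 0 were called. The part of all these lists in the GTPase values was not tested.

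On HFD all 9 genes were fitted higher in p53KO, between 0.10 and 0.53, with an adjusted p of 0.9998 for each in edgeR's quasi-likelihood test and none at an unadjusted p under 0.05. In this comparison 0% of all genes were called and 1.73% were higher at an unadjusted p under 0.05. Averaged over both diets the median of the 9 was 0.30, and Tgtp1 (0.60, SE 0.25) and Iigp1 (0.19, SE 0.09) had an unadjusted p under 0.05 and an adjusted p of 0.966. There 0% of all genes were called and 2.36% were higher at an unadjusted p under 0.05. DESeq2 and limma voom called 0 of the 9 in both comparisons.

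The difference between the HFD effects of the 2 genotypes was tested as an interaction, in which 4 of the 9 genes were above 0 and 5 below. The values ran from -0.40 for Tgtp1 to 0.27 for Irgm1, with a smallest adjusted p of 0.738 in edgeR's quasi-likelihood test and none at an unadjusted p under 0.05. Of all genes tested 0% were called and 4.47% were higher at an unadjusted p under 0.05, and DESeq2 and limma voom called 0 of the 9. The median of the 9 was -0.02, and with each library left out it ran from -0.17 (without Control_Rosa26KO replicate 2) to 0.10 (without Control_p53KO replicate 3), so that its sign was not stable. A larger or smaller HFD effect in p53KO was not detectable for these genes at this spread.

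The type I interferon response was followed as a list of 36 genes, all of which passed the filter. These share libraries and control groups with the GTPase values, so the lists are set side by side and not tested against each other. HFD gave 36 of 36 type I genes a change above 0 in each genotype, with a median of 0.78 in Rosa26KO and 1.14 in p53KO, against 0.69 and 0.46 for the 9 GTPase genes. Of all genes tested, 0.446% were called higher in Rosa26KO and 1.62% in p53KO. In Rosa26KO 1 type I gene rose, Herc6, a ligase that attaches the ubiquitin-like protein Isg15 (0.90, adjusted p = 0.0353, edgeR's quasi-likelihood test with Benjamini-Hochberg adjustment). In p53KO 8 rose, namely Herc6, Ddx58 (the RNA sensor RIG-I), its relative Dhx58, Xaf1, Phf11d, Rtp4, Oasl2 and Isg15, among them Oasl2 by 2.16 and Isg15 by 1.73 on the log2 scale. Without Control_p53KO replicate 4 that count was 28, and without Control_Rosa26KO replicate 2 it was 21. It was 16 without HFD_p53KO replicate 5 and 15 without replicate 7, 3 without Control_p53KO replicate 6 or HFD_p53KO replicates 1 or 6, and 1 without Control_p53KO replicates 1, 2 or 5 or HFD_p53KO replicates 2, 3 or 4. In Rosa26KO the count was 10 without Control_Rosa26KO replicate 2, and 0 without any one of Control_Rosa26KO replicates 1, 3, 4, 5 and 6 or HFD_Rosa26KO replicates 1, 2, 3 and 5.

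In the average over both genotypes 28 of 36 type I genes rose, with a median of 0.94, beside 3 of 9 GTPase genes with a median of 0.55. There 4.64% of all genes tested were called higher. Isg15 rose by 1.34, Oasl2 by 1.66 and Ifit3b by 1.55. Gbp3, at 1.24, thus lay within the range of the type I genes, while Irgm2 and Iigp1, at 0.16 and 0.10, were not called. With p53 loss on control diet the lists had medians of opposite sign. The 9 GTPase genes had a median of 0.29, with 8 of 9 above 0, and the type I list one of -0.14, with 11 of 36 above 0, none called by edgeR, DESeq2 or limma voom, and 0 at an unadjusted p under 0.05 in edgeR. The type I median was 0.31 without Control_Rosa26KO replicate 2, which turned its sign, and -0.31 without Control_p53KO replicate 4. For the interaction, 34 of 36 type I genes were above 0 with a median of 0.46 and none called by edgeR's quasi-likelihood test with 2 at an unadjusted p under 0.05.

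Among 15 other GTPases of these families that passed the filter, 12 were above 0 in the HFD average and 2 rose, Gbp9 (1.04, SE 0.30, adjusted p = 0.0309, edgeR's quasi-likelihood test) and Gm12250, an immunity-related GTPase also called Irgb10 (0.76, SE 0.25, adjusted p = 0.0490). Gbp10, the near copy of Gbp6, had 0.94 (adjusted p = 0.103), and Tgtp2, the near copy of Tgtp1, 0.28 (adjusted p = 0.588). Gbp2b, also called Gbp1, went the other way at -0.79 (adjusted p = 0.233). The median over the 15 was 0.17, and 4.64% of all genes tested were called higher in this average. By genotype, 14 of 15 were above 0 in Rosa26KO with a median of 0.48, and 6 of 15 in p53KO with a median of -0.03. None of the 15 was called in either genotype, where 1.51% and 2.87% of all genes tested were called, nor for the interaction.

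Among genes of interferon gamma signalling in the HFD average, Ifngr1 had 0.08, Ifngr2 0.27 (adjusted p = 0.149, edgeR's quasi-likelihood test with Benjamini-Hochberg adjustment) and Irf1 -0.004 as log2 fold changes, and none of these 3 was called. The ligand gene Ifng was at 0 in 3 of 25 libraries and reached at most 0.461 CPM, in Control_p53KO replicate 3. The type I ligand gene Ifnb1 was at 0 in 20 libraries. Of 22 other genes induced by interferon gamma, Cd274, which encodes the checkpoint ligand PD-L1, rose by 0.80 (SE 0.23, adjusted p = 0.0263), and the median over the 22 was 0.08. This 1 call in 22 is near the 4.64% of all genes tested that were called higher in this contrast. The chemokine genes Cxcl9 and Cxcl10 had 0.08 and 0.55 (adjusted p = 0.354 for Cxcl10), and the peptide transporter gene Tap1 had 0.25 (adjusted p = 0.204).

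Markers of liver cell types were read in the same HFD average. Of all 14133 genes tested in it, edgeR's quasi-likelihood test called 716 lower and 656 higher. At an unadjusted p under 0.05, 1863 of them were lower and 1565 higher. Of 8 hepatocyte markers 0 were above 0 in the HFD average and 5 fell (Cps1, Apoa1, Alb, Serpina1a and Tat), with a median of -0.57. Their summed level ran from 99754 to 162115 CPM in Control_Rosa26KO, 62798 to 155395 in HFD_Rosa26KO, 74709 to 141610 in Control_p53KO and 48993 to 116638 in HFD_p53KO. Of 10 monocyte and recruited macrophage markers 7 were above 0, 0 were called by edgeR's quasi-likelihood test, 3 had an unadjusted p under 0.05 and the median was 0.42. Their sums ran from 159 to 540.4 CPM, 364 to 619, 184 to 1350.1 and 185 to 1051 in the same order of groups. T and NK cell markers had 6 of 19 above 0 with a median of -0.15 and 0 called, and their sums on HFD ran from 24.9 to 52.5 CPM in Rosa26KO and from 15.1 to 89.5 in p53KO. Of 10 sinusoidal endothelial markers 8 were below 0 and Clec4g fell, 5 had an unadjusted p under 0.05 and the median was -0.34, with sums from 344 to 591 CPM in Control_Rosa26KO, 369.8 to 626 in HFD_Rosa26KO, 363 to 686 in Control_p53KO and 183 to 494 in HFD_p53KO. Of 10 Kupffer cell markers 7 were below 0 and Cd163 fell, the median was -0.32, and the sums ran from 357 to 1007, 707 to 1269.8, 601 to 2404 and 577 to 992 CPM in that order. No gene of these lists was at 0 in any library. By genotype, some medians differed in sign. T and NK cell markers had 16 of 19 above 0 in Rosa26KO (median 0.19) and 2 of 19 in p53KO (-0.40). Kupffer cell markers had 6 of 10 (0.31) and 2 of 10 (-0.67), and neutrophil markers 9 of 9 (2.29) and 0 of 9 (-2.76). None of these T and NK, Kupffer or neutrophil markers was called, against 1.51% and 2.87% of all genes tested. The medians of the hepatocyte, monocyte and endothelial lists kept their sign. The part of these cell markers in the HFD values of the GTPase genes was not tested.

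**Figure D3:**
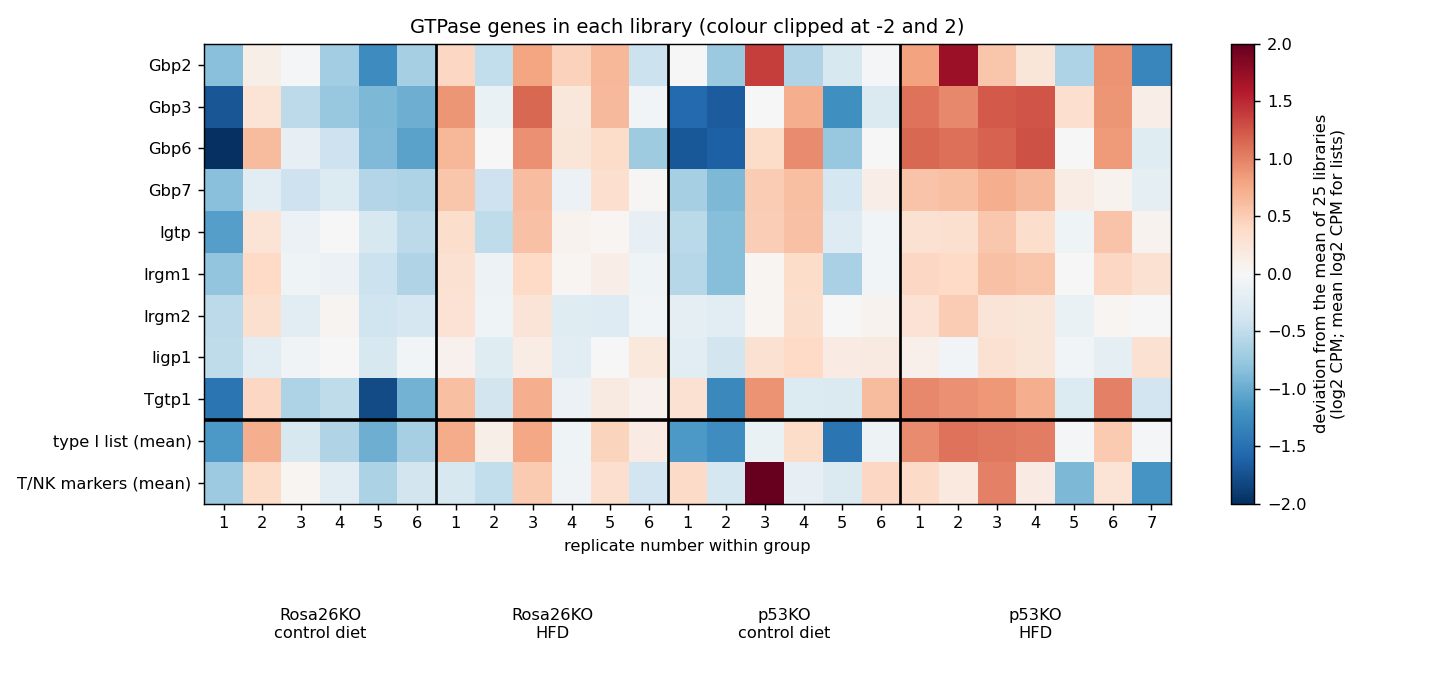
Log2 CPM of the 9 GTPase genes, and below them the mean log2 CPM of the type I list and of the T and NK cell markers (rows), in the 25 libraries (columns, by group); colour gives the deviation from the row's mean over all libraries. Control_Rosa26KO replicate 2 and Control_p53KO replicates 3 and 4 stand high among the control-diet libraries.

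The 9 genes also moved together from library to library. Over the 25 libraries, the 36 pairs of genes had Pearson correlations of log2 CPM from 0.22 (Gbp2 with Iigp1) to 0.96, with a median of 0.75, and within groups the median was 0.70. These correlations are descriptions over libraries that share groups. Among 12949 other genes with a mean of at least 1 CPM, those most like the mean z score of the 9 over the 25 libraries included Gm12250 (r = 0.98), Parp11 (0.92), Gbp10 (0.91), Trim30a (0.91), Samd9l (0.91), Ly6a (0.90) and Tap1 (0.90). Within groups these 7 had r from 0.87 to 0.97. Gm12250 and Gbp10 belong to the same GTPase families, and Gbp10 may share reads with Gbp6.

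As scores (the mean log2 CPM of a list's genes in a library), the type I list followed the 9 genes with r = 0.91 over all 25 libraries and 0.91 within groups, and T and NK cell markers with 0.57 and 0.74. B cell markers had 0.49 and 0.73, and the other genes induced by interferon gamma 0.66 and 0.72. Within groups the T and NK cell value was thus close to that of B cell markers. Monocyte and recruited macrophage markers had 0.54 and 0.44, and Kupffer cell markers -0.04 and 0.06. Hepatocyte markers had -0.77 and -0.61, and neutrophil markers -0.03 and -0.09. These are descriptions of libraries that share tissue and group.

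Gene by gene, deviations from the group means were set against the type I score and against the T and NK cell score, in 18 relations over 25 libraries, with permutations within groups and Benjamini-Hochberg adjustment over the 18. The genes and lists were chosen with earlier results of these data known, so these p-values are no independent evidence of a link. Gbp3 followed the type I score most closely, with Pearson's r of 0.93 (raw permutation p = 1e-05, the smallest that 100000 permutations can give, adjusted p = 3.6e-05) and Spearman's rho of 0.91 (raw p = 1e-05, adjusted p = 4.5e-05), and r was 0.90 without the 2 libraries farthest from the median score. Against the T and NK cell score, Gbp3 had r of 0.58 (adjusted permutation p = 0.00564) and rho of 0.65. Irgm1 had 0.91 with the type I score (rho 0.89) and 0.56 with the T and NK cell score (rho 0.67). Gbp6 had 0.89 and 0.60, Gbp7 0.84 and 0.62, Igtp 0.78 and 0.61, and Irgm2 0.82 and 0.38, where 0.38 did not pass (adjusted permutation p = 0.0586).

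Gbp2 and Tgtp1 had the order reversed. Gbp2 had r of 0.85 with the T and NK cell score (adjusted permutation p = 5.14e-05, rho 0.89) and 0.57 with the type I score (adjusted permutation p = 0.00462, rho 0.65). Without the 2 libraries farthest on each score those values of Gbp2 were 0.77 and 0.70. Tgtp1 had 0.80 with the T and NK cell score (rho 0.83) and 0.74 with the type I score (rho 0.78), and without the 2 farthest libraries 0.77 and 0.81, so the order for Tgtp1 rested on those libraries. Iigp1 was the loosest, with 0.49 with the type I score (adjusted permutation p = 0.0409, rho 0.42 with adjusted p = 0.0803) and 0.25 with the T and NK cell score (adjusted permutation p = 0.32). Whether the correlations with the 2 scores differ was not tested.

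**Figure D4:**
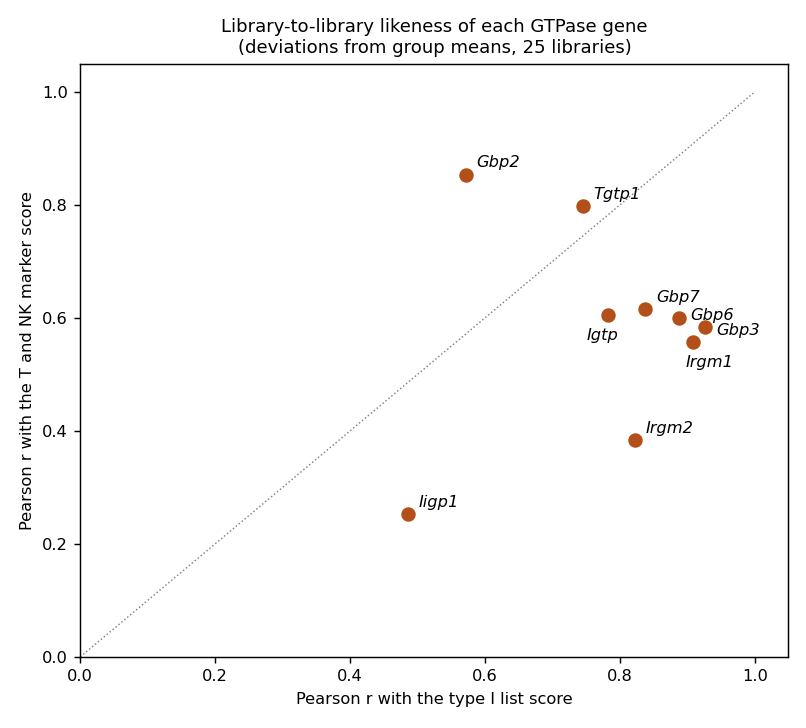
Pearson correlation of each GTPase gene with the type I interferon score (horizontal axis) and with the T and NK cell score (vertical axis), over deviations from group means in 25 libraries. Gbp3 and Irgm1 lie far along the type I axis at 0.93 and 0.91, and Gbp2 and Tgtp1 stand highest on the T and NK cell axis at 0.85 and 0.80.

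**Figure D5:**
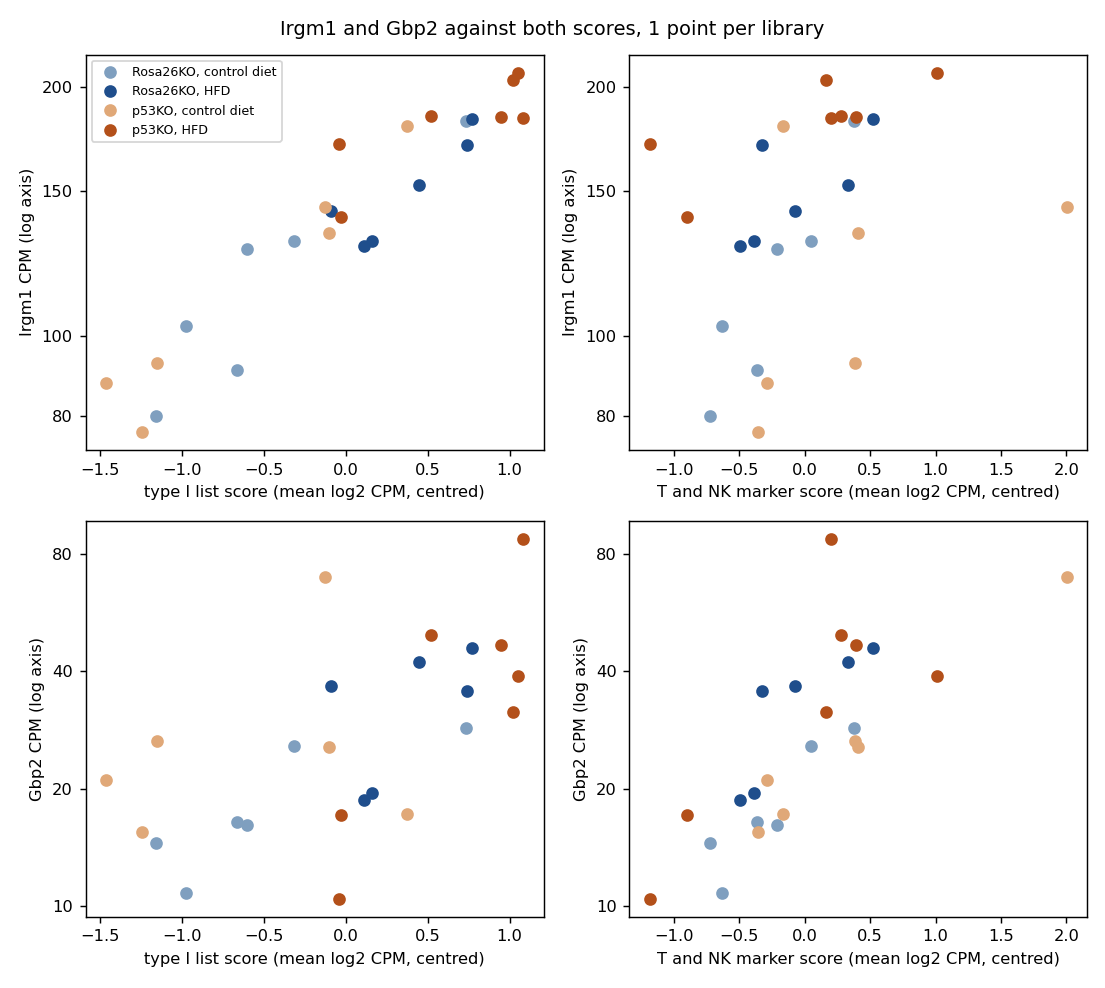
Level of Irgm1 (upper row) and Gbp2 (lower row) in CPM, on a log axis, against the type I score (left) and the T and NK cell score (right), both as centred mean log2 CPM; each point is 1 of 25 libraries, coloured by group. Within groups, Irgm1 follows the type I score (r = 0.91) and Gbp2 the T and NK cell score (r = 0.85).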

How the data were processed

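Liver polyA RNA of 25 samples in 4 groups was measured with paired reads on an AVITI instrument, per the labels. The authors deposited raw read counts per gene for 24537 genes, and per the submitters' processing notes STAR, HOMER and the builds GRCm38 and mm10 were used. Not given in the sources used here were tool versions, counting strand and the treatment of multi-mapping reads. Totals ran from 16324283 to 21501281 counts per library, and no value column was left without a sample.

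In R 4.3.3, edgeR 4.0.16 kept 14133 genes (filterByExpr, minimum count 10, minimum total 15), scaled libraries by TMM and fitted a robust quasi-likelihood model to all 25 libraries with 1 mean per group. All p-values are two-sided, and the threshold was 0.05. Adjusted p-values of the gene tests are Benjamini-Hochberg values over the genes tested in each comparison. Permutation p-values were adjusted over the 18 relations, and p-values without adjustment are called unadjusted or raw. CPM values are means ± SD. Correlations used log2 CPM (prior count 2) and, for the relations with permutation p-values, log2 of CPM plus 0.5, with 100000 permutations in NumPy 2.4.6. The fit was tested on simulated counts. Alternatives were RLE scaling, no filter, DESeq2 1.42.0, limma 3.58.1 voom, no robust option, a replicate block, a term for library run, the compared groups alone and each library left out. A diet effect averaged over genotypes, and leaving out 3 libraries high in neutrophil markers, were added after the data had been seen.

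The 9 genes and the gene lists were chosen with earlier results of these data known. The 9 were always named. From other lists, genes past the threshold or else up to 4 of smallest p were to be named, with the related GTPases, the interferon gamma signalling genes and the 8 genes most like the 9, of which the text gives a selection, since some results are not reported here. The genes Cxcl9, Cxcl10, Tap1 and Ifit3b were chosen after their values were seen. Positions are from GENCODE M21, transcript identities from BLAST 2.17.0 and promoter sequences from RefSeq.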

Additional observations from a re-analysis of the deposited data

Results flagged for a closer look

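Of 36 gene and group combinations examined for a library far from the others, 1 stood out, and chance alone gives about 1 in 20. Gbp2 in Control_p53KO reached 69.6 CPM in replicate 3, and the next library had 26.4 CPM. Without that library the group mean was 21.2 ± 4.87 CPM (SD, n = 5) in place of 29.2 ± 20.2 (SD, n = 6), and the log2 fold change of p53KO against Rosa26KO on control diet was 0.18 (adjusted p = 0.978, edgeR's quasi-likelihood test with Benjamini-Hochberg adjustment) in place of 0.65. The same library had the highest summed T and NK cell markers, at 223.8 CPM, and the highest Ifng, at 0.461 CPM. Their part in the Gbp2 value was not tested.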

How the results depend on the processing

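The HFD calls depended on the tool and the spread model more than on scaling. Of the genes tested, the main fit called 213 with HFD in Rosa26KO, 405 in p53KO and 1372 in the average over genotypes, against 615, 907 and 1800 with DESeq2, 3023, 2184 and 5001 with limma voom, 549, 785 and 2282 with the replicate block, 442, 633 and 1791 with a term for library run, 538, 488 and 2500 without the 3 libraries high in neutrophil markers, and 653 and 121 in the first 2 when fitted to the compared groups only. With p53 loss DESeq2 called 1 gene on each diet and 7 in the average, limma voom 2 in the average, and the block and the fit without the 3 libraries 1 each, while DESeq2 called 5 for the interaction. For these 3 counts with HFD, leaving out each library gave 93 to 509, 173 to 760 and 1012 to 1883, and 0 to 1 for the average p53 effect.

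Of the 9 GTPase genes, 0 were called with HFD in Rosa26KO, against 1 with DESeq2, 6 with limma voom, 2 in the compared groups only and 0 to 2 with each library left out. In p53KO 0 were called, against 2 with DESeq2, 4 with limma voom, 1 without the robust option, 2 with the block, 2 with the run term and 0 to 2 with each library left out. In the average 3 were called, against 5 with DESeq2, 7 with limma voom, 6 with the block, 4 with the run term, 6 without the 3 libraries and 2 to 6 with each library left out. Of the type I genes, 1 in Rosa26KO became 2 with DESeq2, 30 with limma voom, 2 in the compared groups only and 0 to 10 with each library left out. The 8 in p53KO became 4 with no filter, 25, 33, 22 and 20 with DESeq2, limma voom, the block and the run term, 0 in the compared groups only, 1 without the 3 libraries and 1 to 28 with each library left out. Those in the average ran from 21 to 33 with each library left out. The causes were not tested.

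Some directions turned. Irgm1 with p53 loss on control diet, -0.00096 in the main fit, was 0.00299 with RLE scaling, 0.00298 with DESeq2, 0.0116 in the compared groups only and 0.00528 without the 3 libraries. Iigp1 with HFD in p53KO, 0.0017 in the main fit, was -0.00449, -0.00455, -0.0052 and -0.0203 in the same order, and -0.0211 with the block. For the interaction, Gbp2, Gbp3 and Irgm2 were 0.082, -0.062 and -0.050 without the 3 libraries, Gbp7 and Igtp 0.053 and 0.19 with limma voom, and Igtp 0.074 with the block and 0.066 with the run term. With each library left out, p53 loss on control diet ran from -0.15 to 0.54 for Gbp3, -0.080 to 0.65 for Gbp6 and -0.16 to 0.16 for Irgm1, on HFD from -0.030 to 0.45 for Gbp2 (main values 0.25, 0.29, -0.00096 and 0.28), and HFD in p53KO from -0.083 to 0.066 for Iigp1. The interaction, which in the main fit was -0.36 for Gbp2, 0.12 for Gbp3, 0.24 for Gbp6, -0.28 for Gbp7, -0.02 for Igtp and 0.0062 for Irgm2, ran from -0.68 to 0.10 for Gbp2, -0.17 to 0.51 for Gbp3, -0.12 to 0.61 for Gbp6, -0.15 to 0.14 for Igtp and -0.11 to 0.081 for Irgm2. None of these was called.

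Deviations from the group means were correlated above 0.1 in 17 of 36 pairs of libraries with the same replicate number. The correlations ran from -0.40 to 0.60, with a median of 0.07. Pairs with different numbers were not examined, so these values cannot decide whether replicate numbers pair the samples. The block is therefore given as an alternative. The lowest count of any of the 9 genes in a library was 169.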

Other observations

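Class II antigen presentation genes, which interferon gamma induces through Ciita in antigen-presenting cells, gave values of the opposite sign to the GTPase genes with HFD in p53KO. The log2 fold changes were -1.07 (SE 0.48) for H2-Aa and -1.27 (SE 0.51) for Cd74, with adjusted p of 0.232 and 0.174 in edgeR's quasi-likelihood test with Benjamini-Hochberg adjustment, and 0.08 and -0.06 in Rosa26KO. H2-Aa reached 732.6 CPM in Control_p53KO replicate 3, the library in which Gbp2 was high, and had a median of 126 CPM in that group. The genotype difference was not called (interaction of H2-Aa -1.15, adjusted p = 0.633), and these genes were picked after their values were seen.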
